A study of Mus musculus with 18 samples.

Results

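ISG15 is a small ubiquitin-like protein that cells attach to other proteins after interferon signalling. The genes described here are Isg15 itself, the activating enzyme Uba7, the conjugating enzyme Ube2l6, the ligase Herc6, the protease Usp18 and, beside the conjugation pathway, the exonuclease Isg20. These 6 genes were chosen by symbol and by role, not by their values, although results of these data were known when the set was drawn up. All 6 were present among the 55401 lines of the endothelial table and among the 22612 lines of the EO771 table, and all passed the filter on low values in both.

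The 18 mouse RNA-seq libraries make up 6 groups, each of 3 libraries. The 4 endothelial groups were sorted by the study from C57BL/6 mice, obtained at 5 to 6 weeks of age, as CD45-negative, CD31-high cells, with PNAd marking the high endothelial cells (HECs). Blood vessel endothelial cells (BECs) came from the fat pad (BEC normal) or from primary tumours (BEC tumour), and HECs came from lymph nodes without tumour (HEC normal) or from lymph nodes labelled as metastases (HEC tumour), the tumours being of EO771 cells. EO771 is a mouse breast cancer cell line, a single line, which was cultured with vehicle (2% DMSO in saline) or with 100 nM 12-HETE, a lipid product of 12-lipoxygenase, for 48 h. No gene was altered in these groups. The study's figure legends give 3 independent experiments for the RNA-seq of endothelial cells and of EO771 cells. The labels do not say whether mice were pooled or cultures were separate, so that p-values measure only the spread between these libraries, which may in part be technical. BEC normal and BEC tumour differ in tissue as well as in tumour, and these cannot be told apart.

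Conjugation of ISG15 runs through a chain of enzymes like that of ubiquitin. Uba7 activates ISG15, Ube2l6 carries it, and Herc6, which serves as the main ISG15 ligase in mice, passes it to the target protein. Usp18 removes it again and separately dampens signalling at the type I interferon receptor. Isg20 degrades single-stranded RNA and is not part of the chain. Transcription of these genes is classically driven by the transcription factor complex ISGF3, which includes Stat2 and Irf9, at interferon-stimulated response elements, short sites built around repeated GAAA.

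The sequences are shown for the promoters that held such a site. A search of the RefSeq promoter windows (GRCm38.p6, from 250 bases before to 50 bases after each start) found windows for 5 of the 6 genes, all but Usp18, with 3 windows for Isg20. The strict motif was GAAA, any 2 bases and GAAA on either strand, and it was present in 3.44% of 32851 windows. It matched 3 times, overlapping, in Isg15, between 78 and 57 bases upstream of the start, and in none of the 6 windows of the other genes. A looser motif without the first G, which finds the strict one too and was chosen after the windows were read, was present in 10.6% of windows and also matched once in Uba7 and once in 1 Isg20 window, both times on the opposite strand. The capitals mark the matched bases, from the strict motif for Isg15 and from the looser one for the others. The Isg15 sequence is the minus strand of chr4:156200871-156200900, and the others are the plus strand of chr9:107975530-107975559 and chr7:78913352-78913381.
Isg15: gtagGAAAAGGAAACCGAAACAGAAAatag
Uba7: ctcagtctagTTTCACTTTtggtttcctga
Isg20: tcttggaattTTTCCTTTTggacctaataa
A match is only a description of letters in these windows, and the windows with none say nothing of the factor.

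In the GRCm38 annotation, Isg15 (ENSMUSG00000035692) lies on the minus strand of chr4:156199424-156200818, and the other 5 genes lie on plus strands. Uba7 (ENSMUSG00000032596) is at chr9:107975505-107984060, Ube2l6 (ENSMUSG00000027078) at chr2:84798828-84810335 and Herc6 (ENSMUSG00000029798) at chr6:57581000-57664632. Usp18 (ENSMUSG00000030107) is at chr6:121245906-121270917 and Isg20 (ENSMUSG00000039236) at chr7:78913424-78920396. Isg15, Ube2l6 and Isg20 share no exon bases with another gene. The annotated gene Gm45193 overlaps 13.7% of the exon bases of Herc6 on the same strand, Gm20661 overlaps 3.48% of those of Uba7 on the same strand, and Gm44148 overlaps 4.44% of those of Usp18 on the opposite strand. How reads in the shared bases were counted is not given in the sources used here, so the values of these 3 genes are uncertain to that extent.

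Endothelial libraries held totals of 56.4 M to 79.4 M (M, 1000000 units), whose low values moved in steps of about 3.77, so that a total corresponds to 14.9 M to 21 M steps, and EO771 libraries held 17.3 M to 18.6 M counts. The endothelial marker list (10 genes) summed to between 2634 and 3909 CPM (counts scaled to a library total of 1000000) in every endothelial library. High endothelial markers (8 genes) summed to between 975 and 3057 CPM in HECs and to at most 11.8 CPM in BECs, although 2 of the 8 were at 0 in each HEC group, Ccl21a in both. In EO771 cells the tumour epithelium markers (5 genes) summed to between 3051 and 3977 CPM with vehicle and to between 2042 and 2092 CPM with 12-HETE.

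The first comparison asked how the transcripts of cultured tumour cells differed with 12-HETE. Levels below are normalised counts, that is, deposited counts divided by a size factor per library, and a call needed a DESeq2 adjusted p under 0.05 and a log2 fold change past 1 in either direction. With 12-HETE, all 6 genes were called lower and none higher, where 7.79% of 11602 genes tested were called lower and 2.38% higher. All 6 had groups that did not overlap, and how often this held among all genes was not counted in this or the later comparisons. By adjusted p alone, 2813 of all genes tested were lower and 2637 higher. The median log2 fold change of the 6 was −3.60, beside 0.00 over all genes tested, and their summed level was 1663 ± 120 CPM with vehicle and 83.7 ± 1.84 CPM with 12-HETE (SD, n = 3). These are bulk libraries, in which fewer cells of a type and less RNA per cell cannot be told apart.

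Isg15, the modifier, had the largest change. Its levels with vehicle were 8750, 9288 and 7950 normalised counts in replicates 1 to 3, and with 12-HETE they were 18.5, 34.5 and 33.5. The deposited counts behind the last 3 values were 18, 35 and 34. All 3 libraries with 12-HETE were thus at low counts, and none came near the vehicle libraries. The log2 fold change was −8.23 ± 0.19 (SE), a 299-fold lower level, with a 95% interval from −8.61 to −7.84 and an adjusted p listed by DESeq2 as 0 for being below the smallest number held.

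Usp18, the protease that takes ISG15 off its targets, read 12398, 13639 and 11640 normalised counts with vehicle. With 12-HETE it read 487, 489 and 441, which leaves a wide gap between the groups. The log2 fold change was −4.73 ± 0.11, or 26.6-fold lower.

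The enzymes that activate and carry ISG15 also fell, with smaller fold changes. Uba7, the activating enzyme, read 871, 1001 and 968 normalised counts with vehicle against 82.2, 69.98 and 72.8 with 12-HETE, a log2 fold change of −3.66 ± 0.15 with an adjusted p of 6.12e-123 (DESeq2). Ube2l6, the conjugating enzyme, read 2858, 2712 and 2673 with vehicle against 233, 253 and 218 with 12-HETE, a log2 fold change of −3.55 ± 0.11 with an adjusted p of 7.70e-233. Neither gene's groups came near each other, and the intervals of both changes (−3.96 to −3.36 and −3.76 to −3.34) overlapped.

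Herc6, the ligase, had the smallest change of the 6. Vehicle libraries read 630, 697 and 933, so that replicate 3 stood above the others, and 12-HETE libraries read 181, 171 and 185. The log2 fold change was −2.07 ± 0.18 with an adjusted p of 3.00e-29, and it lay between −2.19 and −1.89 with each library left out in turn. Isg20, the exonuclease, read 3886, 4464 and 3525 with vehicle and 512, 544 and 555 with 12-HETE, a log2 fold change of −2.88 ± 0.12. All 6 calls were kept under every alternative run on this comparison, the block by replicate number included.

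**Figure D1:**
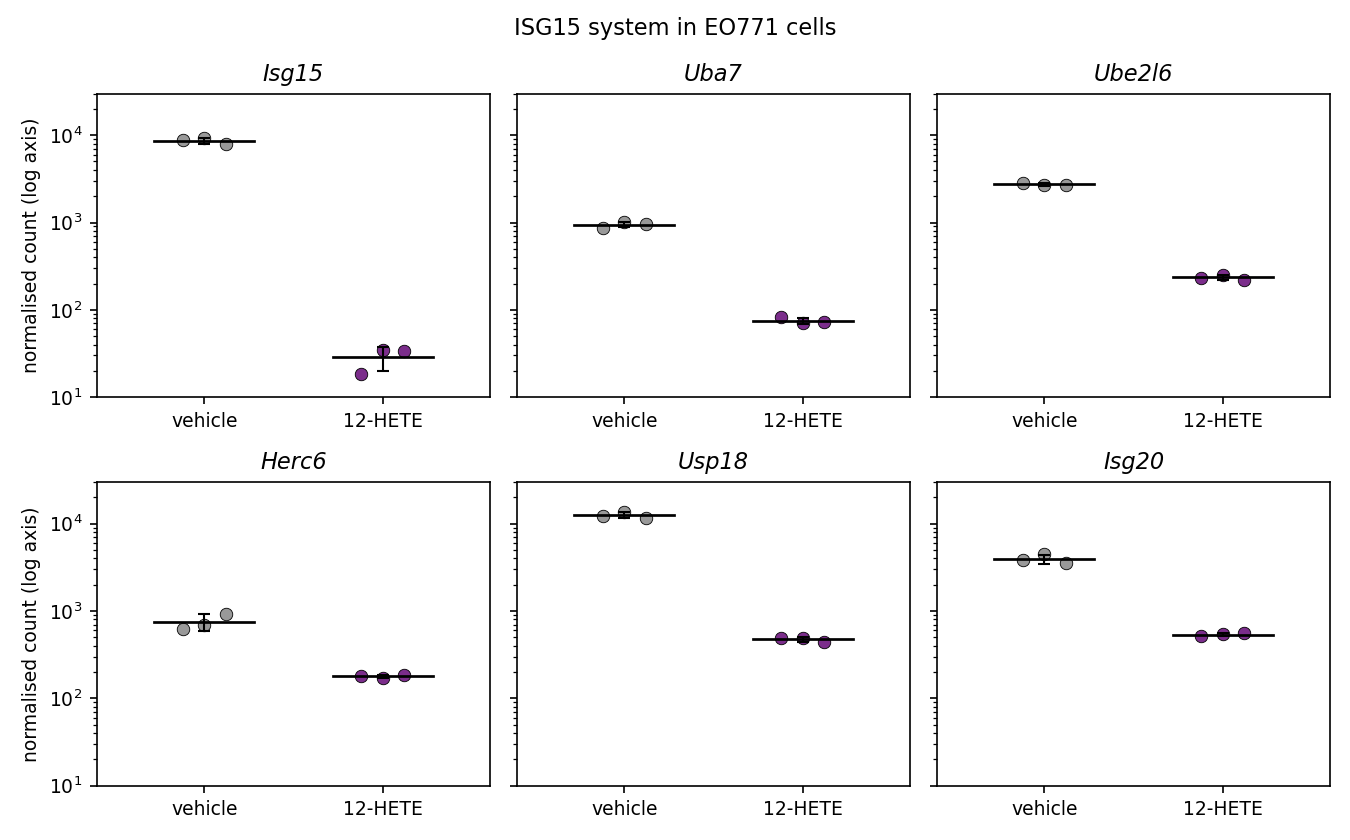
Normalised counts (log axis) of the 6 genes in EO771 cells given vehicle (grey) or 12-HETE (purple); points are libraries in replicate order, horizontal bars are means and error bars are SDs of 3 libraries. In every panel the 3 points with 12-HETE lie under the 3 with vehicle, and the widest gap is that of Isg15, from 8663 to 28.8.

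The mitochondrially encoded share of counts was 0.718% to 0.816% with vehicle and 2.24% to 2.45% with 12-HETE, and the tumour epithelium markers were lower with 12-HETE as given above. Fibroblast markers (6 genes) summed to between 389.9 and 613 CPM with vehicle and to between 998 and 1037 CPM with 12-HETE, where Col1a2 and Col3a1 were at 0 (Lum was at 0 in both groups). Whether these had a part in the changes of the 6 genes was not tested.

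Because the changes were unequal, the balance among the transcripts differed between the groups. Per kilobase of exon, Isg15 made up 58.2% ± 0.395 of the summed level of the 6 with vehicle and 5.88% ± 1.70 with 12-HETE, while the share of Isg20 was 10.8% ± 0.488 with vehicle and 44.8% ± 1.52 with 12-HETE (SD, n = 3). Usp18, at 22.9% ± 0.308 with vehicle and 26.3% ± 1.68 with 12-HETE, and Ube2l6, at 7.02% ± 0.518 and 18.3% ± 1.03, made up most of the rest. On the scale per kilobase, Ube2l6 ran at 0.111 to 0.127 of the Isg15 level in vehicle libraries and at 2.47 to 4.78 of it in 12-HETE libraries. Herc6 ran at 0.00586 to 0.00954 of the Isg15 level with vehicle and at 0.404 to 0.796 with 12-HETE.

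The log2 ratio of each enzyme to Isg15 within a library was tested by an exact two-sided permutation test, which with 3 libraries against 3 cannot go below p = 0.1 and so cannot pass 0.05 in any of the 12 ratios tested. With 12-HETE the ratio was higher by 4.62 for Uba7, 4.73 for Ube2l6, 6.23 for Herc6 and 3.55 for Usp18. Each gave the smallest p allowed, 0.1 (adjusted 0.1), and in each the groups did not overlap. Isg15 had the largest fall, so higher ratios follow from the fold changes given above.

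Genes around the system were read from lists drawn up by role. Of 11 tested genes with other roles in the ISG15 pathway, 2 were called lower with 12-HETE, namely Stat2 (−4.34 ± 0.10), which recruits Usp18 to the interferon receptor, and Trim25 (−1.75 ± 0.09), a ubiquitin ligase that can be modified by ISG15. Of 17 reported substrates of ISG15, 5 were called lower, among them Mx1 (−4.63), the RNA sensors Ddx58 (−3.03) and Ifih1 (−2.33), and the kinase Eif2ak2 (−1.15). The substrates had a median log2 fold change of −0.30, with 11 lower and 2 higher at an unadjusted p under 0.05, and several of those that were called are themselves known interferon-stimulated genes. Of 9 genes of the type I interferon receptor and ISGF3, 4 were called lower, among them Irf9 at −3.51 and Socs3 at −1.08 beside Stat2.

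Relatives of the same enzymes and the machinery of other modifiers were also read. None of 8 relatives (among them Herc1 to Herc4, Ube2l3 and Isg20l2) was called in either direction with 12-HETE by DESeq2 or by edgeR, with a median of −0.04, although at an unadjusted p under 0.05 there were 2 lower and 3 higher. Of 28 genes of other ubiquitin-like systems, which include the enzymes of ubiquitin, SUMO and NEDD8, 1 was called lower (Mocs3, −1.55) and none higher, with a median of 0.11, and 1 of 28 is below the 7.79% called lower among all genes. None of 8 interferon genes passed the filter on low values in EO771 cells. Ifnb1 held 8, 14 and 15 counts with vehicle and 0, 3 and 2 with 12-HETE, and Ifnl3 held 9, 20 and 16 counts with vehicle and 0 in all 3 libraries with 12-HETE, which at these counts is given as values only.

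The second comparison asked how HECs of lymph nodes with tumour differed from those without. In HEC tumour libraries, 5 of the 6 genes were called lower and none higher, where 3.21% of 18511 genes tested were called lower and 4.58% higher. Groups of these 5 did not overlap, and Ube2l6 was the exception. Such separation was not counted over all genes and is given as a description only. By adjusted p alone, 3426 of all genes tested were lower and 3128 higher. The median log2 fold change of the 6 was −1.07, beside 0.02 over all genes tested. The summed level of the 6 was 766 ± 91.9 CPM in HEC normal and 271 ± 26.2 CPM in HEC tumour libraries (SD, n = 3).

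Usp18 had the largest change, with 17348, 16427 and 17029 normalised counts in HEC normal and 3410, 3102 and 3158 in HEC tumour libraries. The libraries of each group lay within 1.10-fold of each other, and the log2 fold change was −2.39 ± 0.09 with an adjusted p of 1.26e-143 (DESeq2). Isg15 read 17169, 15532 and 16987 in HEC normal and 4164, 4477 and 4486 in HEC tumour libraries, a log2 fold change of −1.92 ± 0.13 with an adjusted p of 6.52e-45. Both genes were tight within groups and far apart between them, and both kept their calls under every alternative run.

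Isg20 read 3967, 3146 and 3609 in HEC normal and 1614, 1721 and 1606 in HEC tumour libraries, and its log2 fold change was −1.12 ± 0.13 (adjusted p of 2.00e-16). Uba7 read 2183, 2119 and 2336 in HEC normal and 1151, 1057 and 1108 in HEC tumour libraries, and its log2 fold change was −1.002 ± 0.10 (adjusted p of 1.67e-23). Herc6 read 6477, 5583 and 5924 in HEC normal and 2466, 3113 and 3266 in HEC tumour libraries, and its log2 fold change was −1.02 ± 0.13 (adjusted p of 3.83e-13). The groups of all 3 genes were separate, but Uba7 and Herc6 lay on the fold threshold itself. The call of Uba7 was lost with library totals as size factors (−0.93), with values divided by the step (−0.99), without HEC normal replicate 3 (−0.96) and without HEC tumour replicate 2 (−0.97). The call of Herc6 was lost with library totals (−0.95), without HEC normal replicate 1 (−0.97) and without HEC tumour replicate 1 (−0.91). The adjusted p of each stayed under 0.05 in those settings. Without HEC normal replicate 1 the number called lower was 4 of 6.

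Ube2l6 gave no call. It read 12151, 4350 and 4399 in HEC normal and 2952, 4673 and 5253 in HEC tumour libraries, so that HEC normal replicate 1 was 2.79-fold above the lowest of its group while the other libraries of both groups overlapped. The log2 fold change was −0.70 ± 0.43 (adjusted p of 0.214, DESeq2), with an interval from −1.55 to 0.15. Without HEC normal replicate 1 it was −0.030, and without HEC normal replicate 2 or 3 it was −0.95 (adjusted p of 0.0273) or −0.95 (adjusted p of 0.0287), still short of the fold threshold. Without any 1 HEC tumour library it lay between −0.87 and −0.49. Among 8741 genes with a mean of at least 1000 in HEC normal libraries, 156 (1.78%) had 1 library at least 2-fold from the others while those lay within 1.25-fold of each other, and 18 of the 41 with a high library had it in replicate 1. Such gaps were found in 1.34% to 1.95% of genes in the 4 endothelial groups and in at most 0.225% in the EO771 groups.

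The summed general leukocyte, myeloid and T cell markers were lower with tumour in HECs, while those of B cells and plasmacytoid dendritic cells were higher. B cell markers (4 genes) summed to 0.238 to 0.297 CPM in HEC normal and 0.301 to 0.925 CPM in HEC tumour libraries. Plasmacytoid dendritic cell markers (4 genes) summed to 0.771 to 1.22 CPM and 1.36 to 2.04 CPM respectively. Of these, Klk1 and Siglech were at 0 in every library of both groups. Ccr9 was at 0 in all 3 HEC normal libraries, so the HEC normal sum was that of Cox6a2 alone. Among the B cell markers, Ms4a1 was at 0 in every library of both groups and Cd79b in all 3 HEC tumour libraries. Both sums thus rest on few genes at low levels. T cell markers (6 genes) summed to 6.737 to 8.047 CPM in HEC normal and 4.250 to 5.602 CPM in HEC tumour libraries. Cd3d, Cd3e, Cd3g and Cd8a were at 0 in every library of both groups. Trac was at 0 in all 3 HEC normal libraries but not in all 3 HEC tumour libraries. The HEC normal T cell sum was thus that of the remaining gene alone, and its fall does not describe T cell markers as a set. General leukocyte markers (4 genes) summed to between 2.06 and 5.34 CPM in HEC normal and to between 1.46 and 1.80 CPM in HEC tumour libraries. Myeloid markers (8 genes) summed to between 484 and 509 CPM and to between 356 and 374 CPM respectively, with C1qb at 0 in every library of both groups and Adgre1 and C1qa at 0 in all 3 HEC tumour libraries. Fibroblast markers (6 genes) summed to between 16.96 and 19.6 CPM in HEC normal and to between 8.19 and 9.12 CPM in HEC tumour libraries, and pericyte markers (5 genes) to between 8.28 and 9.78 CPM and to between 3.07 and 3.99 CPM. The mitochondrially encoded share was 2.23% to 2.44% in HEC normal and 2.85% to 3.09% in HEC tumour libraries. The endothelial list was nearly level, at 2634 to 2764 CPM in HEC normal and 2655 to 2692 CPM in HEC tumour libraries. The high endothelial list was higher with tumour, at 975 to 1331 CPM against 2225 to 3057 CPM. The part of any of these in the changes of the 6 genes was not tested.

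Around the system, Stat2 was called lower in HEC tumour libraries (−2.20 ± 0.17), and Itgal, the integrin chain that binds secreted ISG15 on lymphocytes, was called higher (1.58 ± 0.49), among 14 tested genes with other roles in the pathway. Of 17 substrates, 2 were called lower, among them Mx1 (−3.24), and none higher. Of 9 receptor and ISGF3 genes, 3 were called lower, among them Stat2 and Irf9 (−1.13). None of 8 relatives and none of 28 genes of other ubiquitin-like systems was called in either direction in HECs by DESeq2 or by edgeR, with medians of 0.15 and −0.08. At an unadjusted p under 0.05 there were 1 lower and 3 higher among the relatives, and 10 lower and 5 higher in the other systems. Of 8 interferon genes, Ifnb1 alone passed the filter in endothelial cells and was not called in any endothelial comparison. It held deposited values of 11 to 18 in HEC normal libraries and of 0, 8 and 0 in HEC tumour libraries. Its log2 fold change in HECs was −2.43, at an unadjusted p under 0.05 (DESeq2). In BECs it held 58, 29 and 11 without tumour and 8, 14 and 17 with tumour. The log2 fold change there was −1.50, not under 0.05 by unadjusted p.

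The third comparison set BECs of the tumour beside BECs of the fat pad. In BEC tumour libraries 3 of the 6 genes were called lower, namely Isg15, Usp18 and Isg20, and none higher, where 10.8% of 18511 genes tested were called lower and 12.4% higher. The groups of 5 genes, all but Ube2l6, did not overlap, which was not counted over all genes and is given as a description only. By adjusted p alone, 5034 of all genes tested were lower and 4908 higher. The median log2 fold change of the 6 was −0.92, beside 0.01 over all genes tested, and their summed level was 766 ± 62.1 CPM in BEC normal and 300.3 ± 34.4 CPM in BEC tumour libraries (SD, n = 3).

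Usp18 read 16165, 19074 and 17835 normalised counts in BEC normal and 3049, 3404 and 3786 in BEC tumour libraries, a log2 fold change of −2.37 ± 0.09 with an adjusted p of 2.10e-143 (DESeq2). Isg15 read 19815, 25308 and 23421 in BEC normal and 4916, 5668 and 7101 in BEC tumour libraries, a log2 fold change of −1.95 ± 0.13 with an adjusted p of 1.69e-47. For both genes every tumour library was under every normal library by a wide margin. Isg20 read 1661, 2050 and 2070 in BEC normal and 795, 935 and 997 in BEC tumour libraries, a log2 fold change of −1.08 ± 0.13 with an adjusted p of 1.18e-15. Without BEC tumour replicate 1 its change was −0.99 and its call was lost.

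None of the enzymes of the conjugating chain was called in BECs. Uba7 read 2831, 3243 and 3215 in BEC normal and 1703, 1768 and 2019 in BEC tumour libraries, a log2 fold change of −0.76 ± 0.09 (adjusted p of 7.00e-15, DESeq2), which passed the test of p but not the fold threshold. Ube2l6 read 4108, 5095 and 5141 in BEC normal and 3838, 4952 and 5495 in BEC tumour libraries, a log2 fold change of −0.01 ± 0.43 (adjusted p of 0.996). Its groups overlapped throughout, and the interval, from −0.85 to 0.84, is wide, with an SE that was 0.17 when only the BEC groups were in the fit. Herc6 read 3020, 2313 and 2795 in BEC normal and 3658, 3195 and 3264 in BEC tumour libraries, a log2 fold change of 0.32 ± 0.13 (adjusted p of 0.0356), short of the fold threshold and with its adjusted p from 0.0109 to 0.199 over the alternatives. Herc6 was the only one of the 6 whose tumour libraries all lay above its normal libraries, by a narrow margin.

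Markers of other cells moved with this comparison. General leukocyte markers summed to between 3.22 and 6.01 CPM in BEC normal and to between 69.7 and 110 CPM in BEC tumour libraries. Myeloid markers summed to between 108 and 129 CPM in BEC normal and to between 1606 and 2203 CPM in BEC tumour libraries, with all 8 detected in the latter. Tumour epithelium markers (5 genes) summed to between 3.61 and 6.92 CPM in BEC normal and to between 14.3 and 84.3 CPM in BEC tumour libraries. Pericyte markers (5 genes) went the other way, from between 686 and 695 CPM to between 53.6 and 81.9 CPM, and endothelial markers from between 3686 and 3909 CPM to between 2719 and 2773 CPM. Fibroblast markers (6 genes) were also lower, from between 217 and 225 CPM to between 22.8 and 54.6 CPM. The part of these cells in the changes of the 6 genes was not tested.

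The integrin chains Itgal (4.06 ± 0.42) and Itgb2 (1.41 ± 0.17), which together form LFA-1 on leukocytes, were called higher in BEC tumour libraries among the 14 tested genes with other roles in the pathway, and the ubiquitin proteases Usp13 (−1.48) and Usp16 (−1.04) were called lower. Of 17 substrates, 2 were called lower, among them Mx1 (−2.28), and none higher. That is 11.8% of the substrates beside 10.8% of all genes, and the 14.3% of pathway genes called in each direction also lay near the shares of all genes. Among 9 receptor and ISGF3 genes, 2 were called lower, among them Socs3 (−1.10). Of 28 genes of other ubiquitin-like systems, 2 were called lower, among them Urm1 (−1.33), and none higher, a share of 7.14%, and none of 8 relatives was called by DESeq2 or by edgeR, with 1 lower and 4 higher at an unadjusted p under 0.05.

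**Figure D2:**
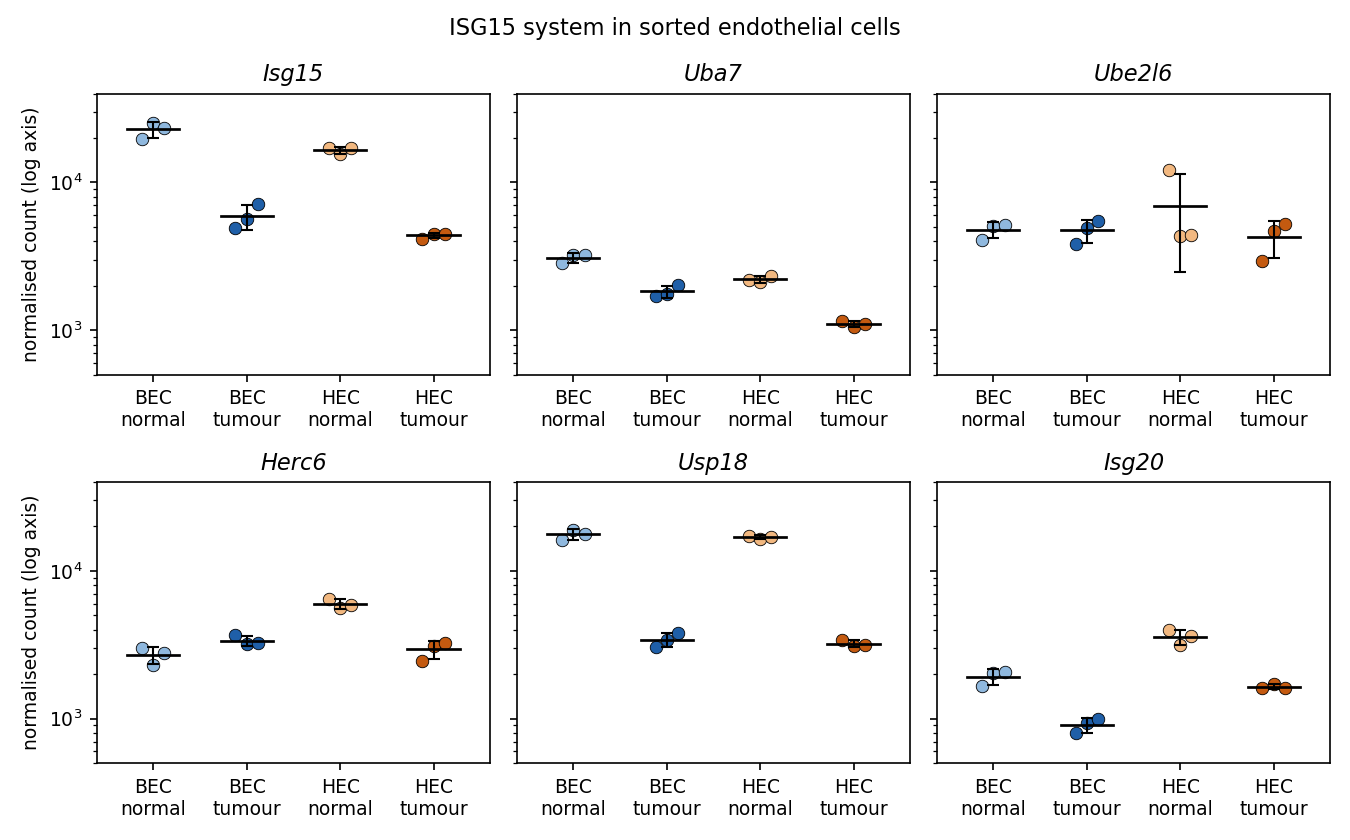
Normalised counts (log axis) of the 6 genes in the 4 endothelial groups; points are libraries in replicate order, horizontal bars are means and error bars are SDs of 3 libraries. Isg15 and Usp18 are lower with tumour in both cell types, Herc6 stands highest in HEC normal libraries (5583 to 6477), and 1 HEC normal library of Ube2l6 (12151) stands apart.

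The cell types themselves were compared without and with tumour. In normal libraries, HECs had 1 of the 6 genes called higher than BECs and none lower, where 17.1% of genes were called higher and 15.1% lower, so that the count of the 6 was close to that of all genes. The called gene was Herc6, which was 1.15 ± 0.13 higher on the log2 scale in HECs (adjusted p of 5.60e-17, DESeq2). For 4 of the 6 the groups did not overlap, which was not counted over all genes and is given as a description only. By adjusted p alone, 5815 of 18511 genes tested were higher in HECs and 5902 lower. Isg20 was 0.89 ± 0.13 higher in HECs, and Isg15 and Uba7 were lower there with log2 differences of −0.46 ± 0.13 and −0.48 ± 0.09. These 3 passed the test of p but not the fold threshold. For Usp18 the log2 difference was −0.06 ± 0.09, with an interval from −0.24 to 0.12 and overlapping groups. For Ube2l6 it was 0.54 ± 0.43, which was −0.12 without HEC normal replicate 1.

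With tumour, none of the 6 genes was called between HECs and BECs, by DESeq2 or by edgeR, where 11.2% of genes were called higher in HECs and 10.7% lower. By adjusted p alone, or at an unadjusted p under 0.05, 2 genes were lower and 1 higher. The 3 had groups that did not overlap, which was not counted over all genes. Among all 18511 genes tested, 5256 were lower and 4801 higher by adjusted p alone. Isg20 was 0.86 ± 0.13 higher in HECs, and Isg15 and Uba7 had log2 differences of −0.43 ± 0.13 and −0.73 ± 0.10. Herc6 no longer stood higher in HECs (−0.19 ± 0.13, adjusted p of 0.218), and Usp18 differed by −0.08 ± 0.09 (adjusted p of 0.473).

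In order of level, Isg15 ran from BEC normal (22848 ± 2791 normalised counts) through HEC normal (16562 ± 897) and BEC tumour (5895 ± 1110) to HEC tumour (4376 ± 183), and no neighbours in that order overlapped (SD, n = 3). Uba7 followed the same order, from 3096 ± 230 through 2213 ± 112 and 1830 ± 167 to 1105 ± 47.1, again with no overlap of neighbours. For Usp18 the normal groups overlapped (17691 ± 1460 in BECs and 16935 ± 468 in HECs), as did the tumour groups (3413 ± 369 and 3223 ± 164). Herc6 was highest in HEC normal (5994 ± 451), and its other groups lay close together (3373 ± 250 in BEC tumour, 2949 ± 425 in HEC tumour and 2709 ± 361 in BEC normal), with HEC tumour overlapping both neighbours. Isg20 ran from HEC normal (3574 ± 411) through BEC normal (1927 ± 230.4) and HEC tumour (1647 ± 64.2), which overlapped each other, to BEC tumour (909 ± 104). Ube2l6 had no neighbours that did not overlap, at 6967 ± 4490 in HEC normal, 4781 ± 584 in BEC normal, 4762 ± 845 in BEC tumour and 4293 ± 1197 in HEC tumour libraries.

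Whether the change with tumour differed between the cell types was tested as the change in HECs less that in BECs. Of the 6 genes, 1 was called in the negative direction and none in the positive, where 12.1% of genes were called negative and 11.2% positive. That gene was Herc6, with a difference of −1.34 ± 0.19 on the log2 scale (interval from −1.71 to −0.97, adjusted p of 1.22e-11, DESeq2), and it was called under every alternative run. The difference was 0.03 for Isg15 (interval from −0.33 to 0.40), −0.02 for Usp18 (from −0.28 to 0.24) and −0.03 for Isg20 (from −0.40 to 0.33), none of them called. For Uba7 it was −0.24 (from −0.51 to 0.02, adjusted p of 0.128), and for Ube2l6 the interval was too wide to read, from −1.89 to 0.51. Of 14 tested genes with other roles in the pathway, 4 were called in the negative direction, among them Itgal (−2.48), Trim25 (−1.65 ± 0.10) and Stat2 (−1.41 ± 0.24), and 3 in the positive, with Usp16 at 1.84. Of 28 genes of other ubiquitin-like systems, 5 were called positive (17.9%, beside 11.2% of all genes), with Mocs3 (1.34), Urm1 (1.33) and Atg3 (1.30) among them, and none negative, where 6 were negative at an unadjusted p under 0.05 and none by edgeR.

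**Figure D3:**
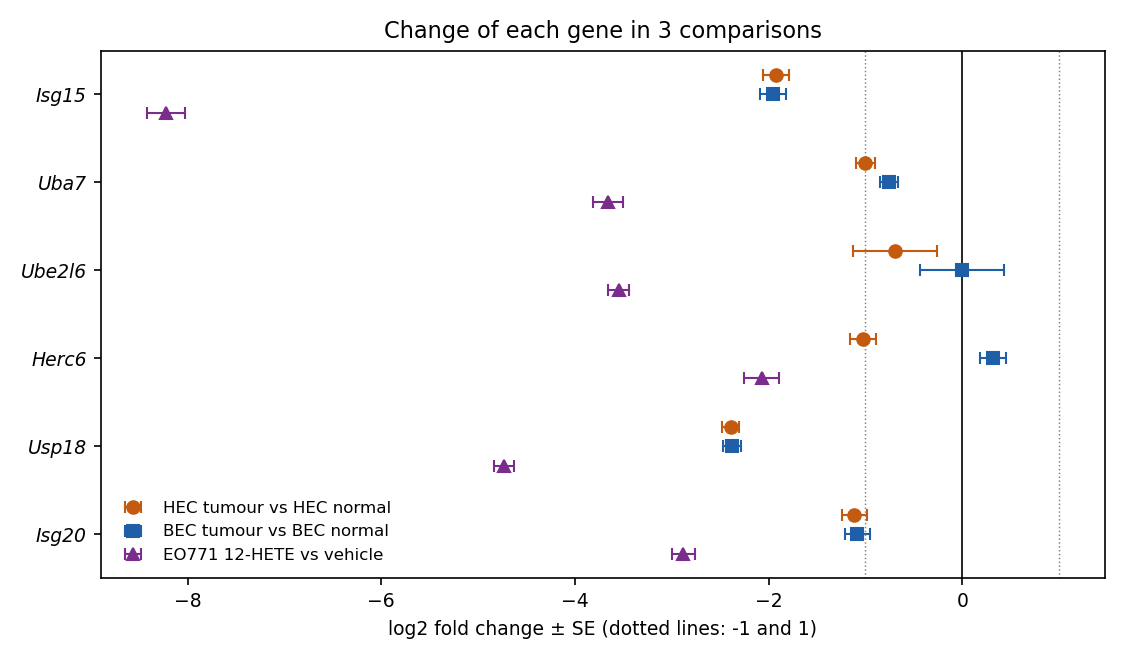
Log2 fold change with its SE (horizontal bars) of the 6 genes with tumour in HECs (orange circles), with tumour in BECs (blue squares) and with 12-HETE in EO771 cells (purple triangles); the dotted lines mark the fold threshold. The HEC and BEC values of Isg15, Usp18 and Isg20 lie side by side, those of Herc6 lie at −1.02 and 0.32, and the EO771 values run from −8.23 to −2.07.

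Per kilobase of exon, Isg15 was the largest of the 6 in all 4 endothelial groups. Its share of the summed level was 74.1% ± 0.742 in BEC normal and 62.1% ± 1.63 in BEC tumour libraries, and 64.0% ± 3.92 in HEC normal and 55.4% ± 2.22 in HEC tumour libraries (SD, n = 3). Usp18 made up 15.6% ± 0.544 and 9.82% ± 0.545 in BECs and 17.8% ± 1.32 and 11.1% ± 1.495 in HECs, without and with tumour. The share of Ube2l6 was 5.88% ± 0.243 and 19.02% ± 1.03 in BECs and 9.82% ± 5.31 and 20.3% ± 4.27 in HECs. Uba7 and Herc6, the first and the last enzyme of the chain, each made up at most 3.02% in any endothelial group.

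**Figure D4:**
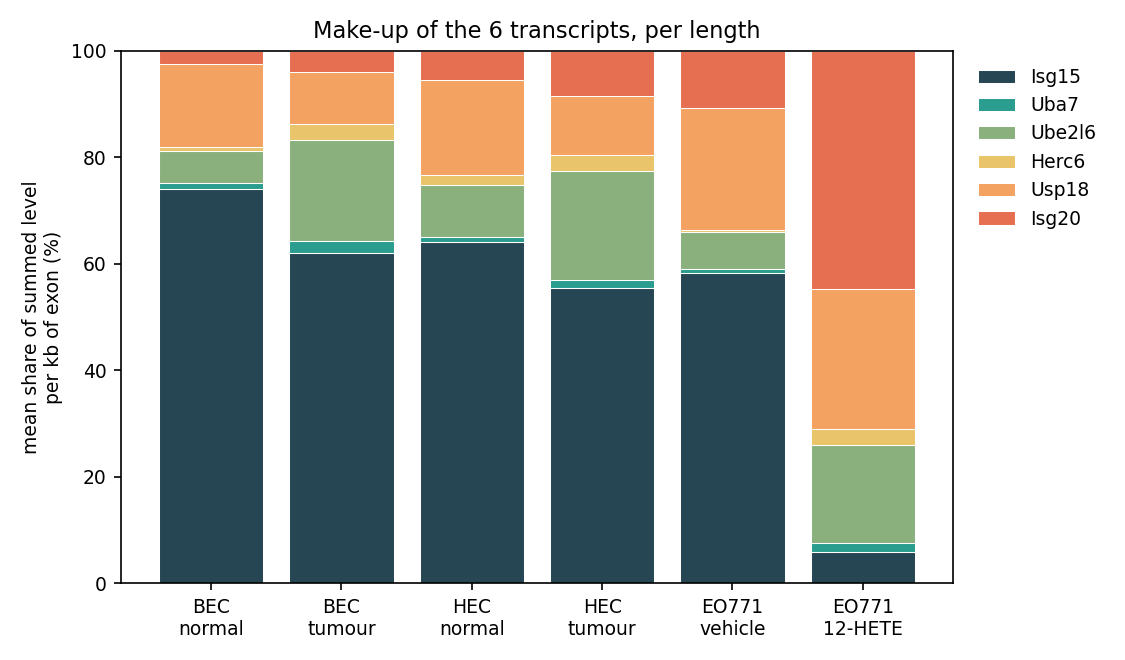
Stacked bars of the mean share (%) that each of the 6 genes has in their summed level per kilobase of exon, in the 4 endothelial groups and the 2 EO771 groups (3 libraries each). Isg15 is the largest block in 5 of the 6 bars, between 55.4% and 74.1%, and only with 12-HETE is it small (5.88%), with Isg20 at 44.8%.

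Set against Isg15 within each library, the ratios of the enzymes of the chain were higher with tumour and that of the protease lower. These ratios restate the fold changes given above. Isg15 itself changed by −1.92 in HECs and by −1.95 in BECs, and a gene that fell less has a higher ratio to it. In HECs the log2 ratio to Isg15 was higher with tumour by 0.92 for Uba7, 1.36 for Ube2l6 and 0.89 for Herc6, and that of Usp18 was different by −0.47. In BECs the ratio was higher by 1.20 for Uba7, 1.95 for Ube2l6 and 2.29 for Herc6, and that of Usp18 was different by −0.41. No groups overlapped, and each exact permutation p was 0.1 (adjusted 0.1), the smallest that 3 libraries against 3 allow. For Ube2l6 in HECs the gap was thin, since HEC normal replicate 1 ran at 0.708 normalised counts per normalised count of Isg15 and the lowest HEC tumour library at 0.709. On the scale per kilobase, Usp18 ran at 0.272 to 0.287 of the Isg15 level in HEC normal and at 0.188 to 0.222 in HEC tumour libraries. In EO771 cells Usp18 ran at 0.384 to 0.398 with vehicle and at 3.57 to 7.14 with 12-HETE, where Isg15 held only 18 to 35 counts. The endothelial and EO771 values differ in kind, so ratios were not compared between them.

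**Figure D5:**
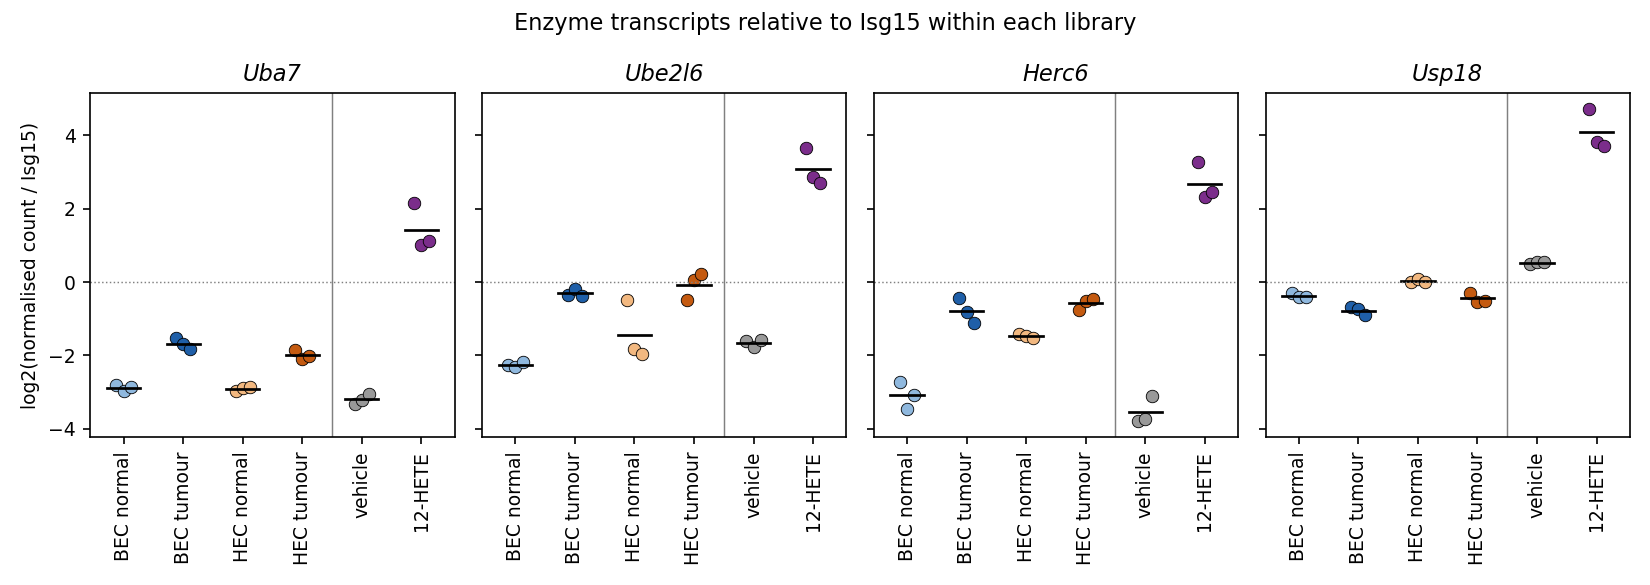
Log2 ratio of the normalised counts of Uba7, Ube2l6, Herc6 and Usp18 to those of Isg15 within each of the 18 libraries; points are libraries, bars are means of 3, and the vertical line parts the endothelial from the EO771 table. With tumour the points lie higher in the first 3 panels and lower for Usp18 (−0.47 in HECs and −0.41 in BECs), while with 12-HETE they lie higher in all 4, by 3.55 for Usp18.

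Over the 12 endothelial libraries, the genes whose log2 level was most like that of each member were taken from 13289 genes by Pearson's r, as a description with libraries of 4 groups that share a fit. Isg15 was most like Lgals9 (r = 0.994), Ifi35 (0.992) and Unc45a (0.991). Usp18 was most like Glipr2 (0.994) and Gsdmd (0.990). Herc6 was most like Nemp1 (0.974), Kif3a (0.971) and Mastl (0.962), none of them close to Isg15, with which Herc6 had an r of 0.24. The other members had r with Isg15 of 0.98 for Usp18, 0.92 for Uba7, 0.63 for Isg20 and 0.33 for Ube2l6. Ube2l6 had a best match of only 0.83, with Ifi47, an interferon-inducible GTPase. Uba7 was most like Sdc1, Atp5b and Hdac5 (0.986 to 0.989) and Isg20 most like Fxr2, Carhsp1 and Btg1 (0.983 to 0.986). In the 6 EO771 libraries, which fall into a pair of separate groups, the r of the other members with Isg15 ran from 0.98 to 1.00.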

How the data were processed

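RNA-seq was made in 12 endothelial and 6 EO771 libraries (the labels name RNeasy extraction and a SMARTer mRNA kit, while the study's methods name Trizol and NEB kits, a directional one for EO771). Per the study's methods, the authors used STAR 2.6.0c with featureCounts 1.6.2 and GRCm38 release 91, with no strand setting given in the sources used here. The deposited EO771 values are counts per gene. The endothelial values as deposited by the authors are whole numbers in steps of about 3.77, and the origin of the steps is not given in the sources used here, so each value was taken for an expected count. A count test was used for both, and dividing by the step was an alternative.

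DESeq2 1.42.0 (R 4.3.3) with default size factors was fitted on each whole table after removing genes with a mean under 10, with Wald tests adjusted by Benjamini-Hochberg over 18511 and 11602 genes; a call needed adjusted p under 0.05 and a 2-fold change. edgeR 4.0.16 was the other tool. The fitting script was tested on simulated data. Exon lengths came from GENCODE M21. The table of EO771 held 26 symbols turned into dates, none of them a member.

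All 6 members were named in every comparison; from each list the called genes were named, up to 4, largest change first, and the 3 genes most alike by r on log2(normalised count + 1) among those with a mean of at least 100. Some genes that this rule would name are not reported here. Members and lists were chosen with earlier results of these data known.

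In EO771 the same-numbered libraries deviated together (r from 0.11 to 0.33 in 3 of 3 pairs), so that the numbers may pair them, as a feature of the data and not of the labels. The main fit and the tests of ratios did not use this pairing. A block by replicate number, run as an alternative, left 6 genes called. Intervals cover the spread between these libraries only.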

Additional observations from a re-analysis of the deposited data

Results flagged for a closer look

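Herc6, the ISG15 ligase, differed between the cell types in its change with tumour. The change in HECs less that in BECs was −1.34 ± 0.19 on the log2 scale (adjusted p of 1.22e-11, DESeq2, 3 libraries a group), with the change at −1.02 in HECs, where all 3 tumour libraries were lower than all 3 normal ones, and at 0.32 in BECs, where all 3 were higher. Over the alternatives run the difference lay between −1.42 and −1.23 and was called each time. Among all genes tested, 12.1% were called negative and 11.2% positive for this difference. BEC normal and BEC tumour differ in tissue as well as in tumour, and these cannot be told apart. Gm45193 shares 13.7% of the exon bases of Herc6, and leukocyte and myeloid markers were higher in BEC tumour libraries, and the part of either was not tested.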

How the results depend on the processing

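Of the calls in the 3 comparisons with tumour or 12-HETE, those of Isg15 and Usp18, and all 6 in EO771 cells, were kept under every alternative run. With library totals as size factors, 3 genes in place of 5 were called lower in HECs with tumour. By adjusted p alone, 1 gene was called higher in BECs with tumour, between HECs and BECs 2 were lower and 2 higher in normal libraries, and 2 were lower and 1 higher in tumour libraries. Among all 18511 genes tested, 4908 were higher in BECs with tumour by adjusted p alone. Between HECs and BECs 5902 were lower and 5815 higher in normal libraries, and 5256 were lower and 4801 higher in tumour libraries. Why the calls of the 6 differed between settings was not tested.

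Signs turned only for values close to 0 or resting on 1 library. The change of Ube2l6 with tumour in BECs was 0.031 by edgeR, 0.031 with TMM factors, 0.038 with library totals, 0.0021 without the filter on low values, 0.0043 with values divided by the step, 0.036 with only the groups compared, and −0.12 to 0.13 with each library left out. Ube2l6 between HECs and BECs lay between −0.12 and 0.80 in normal libraries and between −0.32 and 0.062 in tumour libraries with each left out. Of the differences between cell types in the change with tumour, that of Isg15 was −0.028 by edgeR and −0.028 with TMM factors and −0.083 to 0.19 with each library left out, that of Usp18 was 0.010 with library totals and −0.10 to 0.058 with each left out, and that of Isg20 was −0.12 to 0.068 with each left out.

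In the endothelial table the replicate numbers were not taken to pair the libraries (r over 0.1 in 1 of 18 pairs of same-numbered libraries, although r was above the mean with other numbers in 15 of 18), and the replicate block left the called counts at 5 lower in HECs and 3 lower in BECs. In EO771 the block changed no call. Without vehicle replicate 3, the genes called higher with 12-HETE among all tested were 511 in place of 276. A spread estimated from 3 libraries, and steps of several units in the endothelial values, limit what can be seen for small changes.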
